A study of Mus musculus with 2 samples.

Results

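The Mir23, Mir27 and Mir24 genes stand in 2 paralogous clusters of the mouse genome, and their levels were followed in adrenal gland. The members are 6 precursor genes, chosen by symbol from the 2202 miRNA genes of the tables: Mir23a, Mir27a and Mir24-2 on chromosome 8, and Mir23b, Mir27b and Mir24-1 on chromosome 13. All 6 had at least 10 counts in each library, the level at which a gene was called detected, as had 358 of the 2202. The series holds 1 group, adrenal glands of B6CASTF1/J females (an F1 hybrid of C57BL/6J and CAST/EiJ mice) at 14 days of age, with small RNA libraries of 2 biological replicates and no treatment. By its label, replicate 1 came from 3 females and replicate 2 from 1 female, yet the donor identifier is identical. The spread between them may therefore not be that between animals.

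MicroRNAs are cut from hairpin precursors and guide Argonaute proteins to messenger RNAs, mainly through the seed, bases 2 to 8 of the mature strand. Genes of a cluster can be transcribed as a single primary transcript, and processing and turnover then set the level of each mature miRNA. The clusters studied here are known from endothelial cells, where they act in vessel growth. miR-27 is also known as a regulator of fat cell differentiation and lipid metabolism, miR-23a as a regulator of glutaminase downstream of Myc, and miR-24 as a regulator of cell-cycle genes and, in human adrenocortical cells, of the last steps of aldosterone and cortisol synthesis.

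Hairpin sequences were found for all 6 genes in RefSeq (build GRCm38.p6, the assembly also called mm10), and 11 mature entries belonged to them. The seeds of the families stand in the 3′ arms, miR-23a-3p, miR-23b-3p, miR-27a-3p, miR-27b-3p and miR-24-3p. Of these, 4 are shown 5′ to 3′ with the seed in capitals, and the Mir23 paralogues are set side by side as hairpins further on.
miR-23a-3p: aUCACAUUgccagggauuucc
miR-27a-3p: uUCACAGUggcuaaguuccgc
miR-27b-3p: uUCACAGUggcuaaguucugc
miR-24-3p: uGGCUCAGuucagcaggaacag

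The seeds of miR-23 and miR-27 begin with the same bases, and that of miR-24 is unrelated to either. miR-27a-3p and miR-27b-3p differ by the single substitution C19U, counted from the 5′ end, and share the first 18 bases. miR-24-3p is the same in both clusters. Outside the 6 genes, the seed of miR-24-3p was also found in the mature entries of Mir6413, Mir6410, Mir6369 and Mir5124b, and these 4 genes had 0 counts in both libraries, which allows up to 0.790 CPM in replicate 1 and 0.596 CPM in replicate 2 (3 counts each). CPM is a count scaled to a library total of 1000000 miRNA gene counts.

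The hairpins are shown in pairs, with the longest run of bases that both members of a pair share in capitals.
Mir23a: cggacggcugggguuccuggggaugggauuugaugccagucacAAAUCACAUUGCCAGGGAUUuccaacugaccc
Mir23b: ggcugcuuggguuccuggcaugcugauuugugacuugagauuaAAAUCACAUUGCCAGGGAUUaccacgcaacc
Mir27a: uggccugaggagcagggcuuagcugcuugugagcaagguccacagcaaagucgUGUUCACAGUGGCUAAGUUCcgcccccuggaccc
Mir27b: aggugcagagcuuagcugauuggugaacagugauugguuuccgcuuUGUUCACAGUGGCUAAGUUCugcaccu
Mir24-2: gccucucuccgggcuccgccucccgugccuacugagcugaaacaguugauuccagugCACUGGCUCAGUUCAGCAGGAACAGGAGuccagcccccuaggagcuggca
Mir24-1: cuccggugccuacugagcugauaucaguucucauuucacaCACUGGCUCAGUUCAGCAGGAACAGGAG

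The shared run was 20 bases long in the Mir23 pair, 20 in the Mir27 pair and 28 in the Mir24 pair. It covered 18 of the 21 bases of miR-23a-3p, miR-27a-3p and miR-27b-3p, and all 22 bases of miR-24-3p. A full-length read of miR-24-3p thus matches both hairpins, whereas a full-length read of miR-27a-3p or miR-27b-3p matches its own hairpin alone among the pair. The deposited tables count a read only where it has a single place, and list 3002371 reads of replicate 1 and 2795730 of replicate 2 as mapping to more than 1. No 5′ arm lay in a shared run. The 5′ arms of the Mir24 pair share their first 16 bases and then part, as the capitals show.
miR-24-1-5p: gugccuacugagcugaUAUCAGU
miR-24-2-5p: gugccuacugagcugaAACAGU

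The deposited counts are per precursor and do not say which arm a read came from. A low count of Mir24-1 or Mir24-2 therefore does not show that miR-24-3p is scarce in the gland. Each of the 6 hairpins shares a run of at least 18 bases with its paralogue and with no other annotated miRNA hairpin. Such a run was found in 93 of the 358 detected genes (26.0%), but the members had been chosen as paralogues.

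Coordinates are those of GENCODE M21 on mm10, on the plus strand. On chromosome 8, Mir23a (ENSMUSG00000065611.1) lies from 84208518 to 84208592 and Mir27a (ENSMUSG00000065444.1) from 84208672 to 84208758, both outside other annotated genes. Mir24-2 (ENSMUSG00000065541.1) lies from 84208815 to 84208921 and overlaps Gm26532, a long noncoding RNA gene on the same strand, within an exon. On chromosome 13, Mir23b (ENSMUSG00000065599.2) lies from 63300484 to 63300557, in an intron of 2010111I01Rik, the gene of aminopeptidase O. Mir27b (ENSMUSG00000065475.2), from 63300712 to 63300784, and Mir24-1 (ENSMUSG00000105904.1), from 63301208 to 63301275, overlap exons annotated for that gene. All 3 also lie in an intron of Fancc on the minus strand. The cluster on chromosome 8 spans 404 bases and that on chromosome 13 spans 792, with 423 of these between Mir27b and Mir24-1. Each Mir24 gene has an annotated miRNA gene opposite it on the minus strand, Mir3074-2 on chromosome 8 and Mir3074-1 on chromosome 13.

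**Figure D1:**
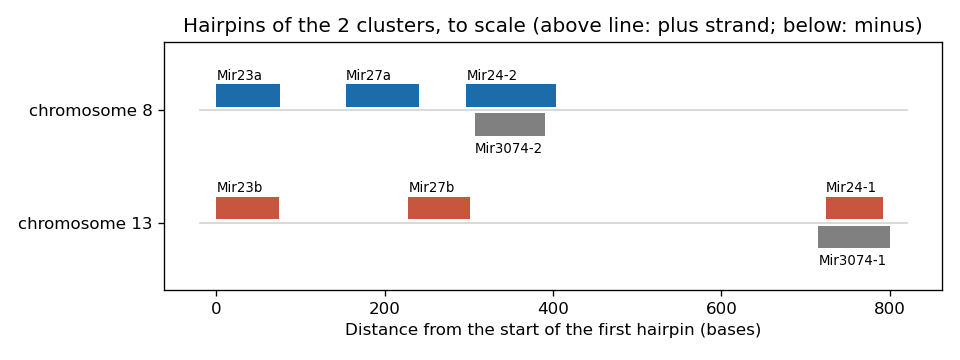
Hairpins of the clusters on chromosome 8 (blue) and chromosome 13 (red), to scale, by distance in bases from the start of the first hairpin, with minus-strand miRNA genes in gray below each line. The order Mir23, Mir27, Mir24 is the same in both, and the gap between the second and the third hairpin is 56 bases on chromosome 8 and 423 on chromosome 13.

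The libraries held 3797107 counts over miRNA genes in replicate 1 and 5034257 in replicate 2, and markers of other tissues set them apart. Hepatocyte markers (3 of the 5 listed genes detected, led by Mir122) summed to 0.300% of counts in replicate 1 and 21.6% in replicate 2. Skeletal muscle markers (2 of 7 detected, with Mir1a-1, Mir133a-1 and Mir133a-2 at 0 counts in both libraries) summed to 0.00305% and 0.156%, and blood markers (6 of 6 detected) to 0.414% and 0.144%. Reads with several places are not counted, so a count of 0 does not show that the miRNAs of these muscle genes are absent. Markers of endothelium (2 of 2 detected) stood at 14.2% and 14.1%, of smooth muscle (2 of 2) at 4.65% and 3.27%, and of neuroendocrine cells (4 of 4), which the adrenal medulla holds, at 3.90% and 2.02%. The endothelial sum is nearly all Mir126a, at 14.2% and 14.1%, and Mir126b, with 30 and 23 counts, fell from 7.90 to 4.57 CPM. The smooth muscle sum is mostly Mir143, at 4.54% and 3.08%, whereas Mir145a rose from 0.102% to 0.184%. Among the blood markers, Mir150 rose from 0.0320% to 0.0363%, Mir223 stayed at 0.0115%, and the others fell. The part of these differences in the results below was not tested. Without Mir122 in the totals, the markers of endothelium stood at 14.3% and 17.9%, of smooth muscle at 4.66% and 4.16%, of neuroendocrine cells at 3.91% and 2.57% and of blood at 0.416% and 0.183%. The mean levels of the members are given both with and without Mir122 in the totals. In whole tissue, fewer cells of a type and less RNA per cell cannot be told apart. Intervals on single libraries cover only the counting error of reads within that library. Reads carried no molecular identifiers, so copies of 1 molecule cannot be told apart, and the intervals can be too narrow.

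Replicate 1 gave 3.65% of its miRNA counts to the 6 genes together (95% interval by Wilson's method, 3.63 to 3.67), and replicate 2 gave 4.37% (4.35 to 4.38). Their mean share was 4.01% ± 0.508 (SD, n = 2), and 4.61% ± 1.34 once Mir122 was taken out of the totals. Most of this was Mir23. The Mir23 pair made up 88.1% ± 5.48 of the counts of the 6 genes, the Mir27 pair 11.5% ± 5.43 and the Mir24 pair 0.450% ± 0.0559 (SD, n = 2 each). Full-length reads of the mature miRNA that both Mir24 hairpins share are not counted. The part of the Mir24 pair and the share of the 6 genes can therefore be too low. The split is one of counted reads and does not show that miR-24 is scarce.

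Mir23b was the most abundant member, with 59057 counts (15553 CPM) in replicate 1 and 111113 counts (22071 CPM) in replicate 2. It was the 16th most abundant miRNA gene in replicate 1 and the 10th in replicate 2. Mir23a, its counterpart on chromosome 8, had 57590 counts (15167 CPM) and 91019 counts (18080 CPM), at ranks 17 and 13. The 2 genes did not separate beyond the spread between libraries, at 18812 ± 4609 CPM for Mir23b and 16623 ± 2060 CPM for Mir23a (SD, n = 2). With Mir122 left out of the totals they stood at 21849 ± 8840 and 19115 ± 5521 CPM.

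Mir27b had 18064 counts (4757 CPM) in replicate 1 and 14841 counts (2948 CPM) in replicate 2, at ranks 36 and 39. Mir27a had 3112 counts (820 CPM) and 1887 counts (375 CPM), at ranks 88 and 111. The lower value of Mir27b lay above the higher value of Mir27a, and both genes were lower in replicate 2 on the CPM scale. Means were 3853 ± 1279 CPM for Mir27b and 597 ± 314 CPM for Mir27a (SD, n = 2), and 4262 ± 720 and 650 ± 244 CPM with Mir122 left out.

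Mir24-2 had 538 counts (142 CPM) in replicate 1 and 697 counts (138 CPM) in replicate 2, a mean of 140 ± 2.29 CPM. Mir24-1 had 140 counts (36.9 CPM) and 205 counts (40.7 CPM), a mean of 38.8 ± 2.72 CPM (SD, n = 2 for both). These are the counts of reads that could be placed at a single locus, and those of miR-24-3p match both hairpins. With Mir122 left out, the means were 159 ± 24.2 and 44.4 ± 10.5 CPM, so the small SDs rest on the totals used. The order of levels was the same in both libraries, Mir23b, Mir23a, Mir27b, Mir27a, Mir24-2 and Mir24-1, and only the first 2 of these had overlapping ranges.

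**Figure D2:**
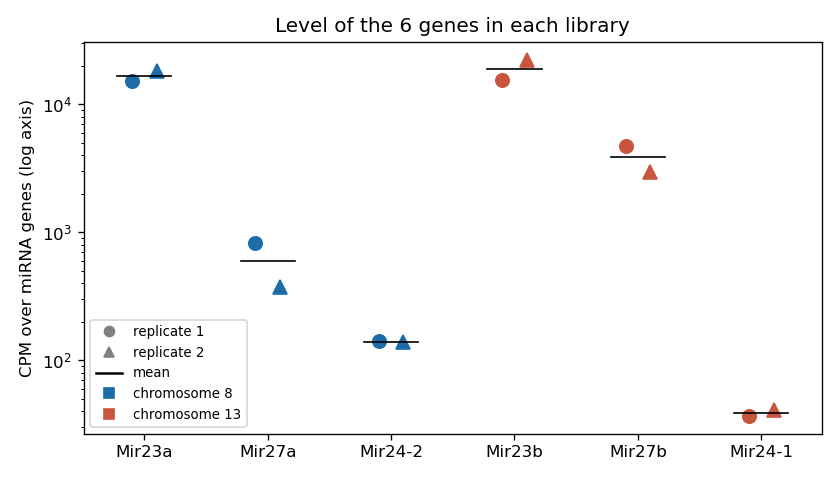
Level of each member in CPM over miRNA genes (log axis), with replicate 1 as circles, replicate 2 as triangles, the mean as a line, chromosome 8 in blue and chromosome 13 in red. In both clusters the counted level falls from Mir23 to Mir24, from 16623 to 140 CPM on chromosome 8 and from 18812 to 38.8 CPM on chromosome 13. Full-length reads of miR-24-3p match both Mir24 hairpins and are not counted, so the Mir24 values can be too low.

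Between the clusters the comparison was made within each library, so that no scaling enters. The cluster on chromosome 13 had 77261 counts in replicate 1 and 126159 in replicate 2, against 61240 and 93603 for that on chromosome 8. The ratio of the sums was 1.26 in replicate 1 (exact Clopper-Pearson 95% interval 1.25 to 1.28) and 1.35 in replicate 2 (1.34 to 1.36). On the log2 scale this was 0.38 ± 0.07 (SD, n = 2). Both sums leave out full-length reads of miR-24-3p, which match a hairpin in each cluster. The ratio and its intervals are therefore those of counted reads, and do not show which cluster yields more miRNA in all. With 2 libraries, an exact two-sided sign test cannot give a p below 0.5, so none was run.

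The excess of counted reads on chromosome 13 lay in different members by position. Mir23b exceeded Mir23a by 1.03-fold in replicate 1 (1.01 to 1.04) and 1.22-fold in replicate 2 (1.21 to 1.23), a log2 ratio of 0.16 ± 0.18, which is smaller than its spread. Mir27b exceeded Mir27a by 5.80-fold (5.59 to 6.03) and 7.86-fold (7.50 to 8.26), a log2 ratio of 2.76 ± 0.31. In the Mir24 pair the direction was opposite, with Mir24-2 at 3.84-fold the count of Mir24-1 in replicate 1 (3.19 to 4.66) and 3.40-fold in replicate 2 (2.91 to 3.99). The log2 ratio of Mir24-1 to Mir24-2 was -1.85 ± 0.12 (SD, n = 2 for each). The chromosome 13 cluster thus had the larger count at its first and second position and the smaller at its last, in both libraries. The Mir24 ratio rests on reads with a single place only. Full-length reads of miR-24-3p match both hairpins, so it does not show which locus yields more miR-24-3p.

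Within clusters, the first hairpin took most of the counts. Mir23a made up 94.0% of the chromosome 8 cluster in replicate 1 and 97.2% in replicate 2, and Mir23b 76.4% and 88.1% of the chromosome 13 cluster. Mir27a made up 5.08% and 2.02%, and Mir27b 23.4% and 11.8%. The second hairpin thus held a larger part of the chromosome 13 cluster, with no overlap between the clusters. Mir24-2 made up 0.879% and 0.745% of its cluster, and Mir24-1 0.181% and 0.162%. Full-length reads of the mature miRNA that both Mir24 hairpins share are not counted, so the parts of Mir24-2 and Mir24-1 can be too low.

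In both clusters Mir27 was lower against Mir23 in replicate 2 than in replicate 1. The count of Mir23a was 18.5 times that of Mir27a in replicate 1 (17.8 to 19.2) and 48.2 times in replicate 2 (46.1 to 50.5). For Mir23b and Mir27b the values were 3.27 times (3.22 to 3.32) and 7.49 times (7.36 to 7.62). The ratio of Mir27 to Mir23 thus fell by 1.38 on the log2 scale from replicate 1 to replicate 2 on chromosome 8 and by 1.20 on chromosome 13. The ratio of the third hairpin to the first moved by -0.29 on chromosome 8, for Mir24-2 (95% interval of the shift from counting error -0.45 to -0.12), and by -0.36 on chromosome 13, for Mir24-1 (-0.67 to -0.051). These differences hold between 2 libraries of 1 group and have no replicate check.

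**Figure D3:**
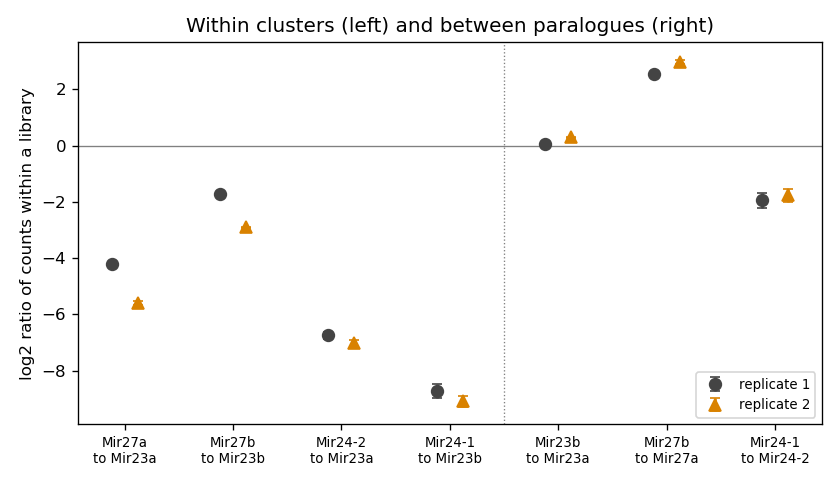
The log2 ratio of counts within a library, with exact 95% counting intervals, for members of 1 cluster (left of the dotted line) and for paralogues (right), in replicate 1 (dark circles) and replicate 2 (orange triangles). The ratios of Mir27 to Mir23 lie lower in replicate 2 in both clusters, by 1.38 and 1.20, while the ratios between paralogues differ by 0.18 to 0.44.

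Differences of this size were common among neighbouring miRNA genes. Among 114 pairs of detected neighbours on 1 strand less than 10 kb apart, the replicate ratios differed by at least 1 on the log2 scale in 41 (36%), with a median absolute difference of 0.68. Of the 4 neighbouring pairs in the clusters, 3 were past that limit: Mir23a with Mir27a, Mir23b with Mir27b, and Mir27a with Mir24-2 at 1.09. The pair of Mir27b and Mir24-1 differed by 0.83. The paralogues, which lie on different chromosomes, differed less, by 0.25 for Mir23, 0.44 for Mir27 and 0.18 for Mir24 (95% interval from counting error -0.17 to 0.53, which includes 0). The 3′ arms of paralogues share most of their sequence, as the shared runs show, and whether reads of either were counted at the other was not tested.

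The drop in level between neighbours can be set beside other miRNA genes in the same way. The median absolute log2 ratio of the levels of neighbours was 2.11 over the 114 pairs. Mir23a and Mir27a differed by 4.90, the 22nd largest, and Mir23b and Mir27b by 2.31, the 52nd. Mir27a and Mir24-2 differed by 1.98, the 59th. Mir27b and Mir24-1 differed by 6.59, the 6th largest of the 114 and the largest of the 82 pairs in which each gene had at least 100 counts in each library. That last value involves Mir24-1, whose 3′ arm is shared with Mir24-2. Other pairs can hold genes with a like limit, since 93 of the 358 detected genes share a run of at least 18 bases with another hairpin. The ranks therefore compare counted levels.

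Other short clusters were compared for the same measure. In the pair of Mir221 and Mir222, which also act in endothelium, the ratio of Mir222 to Mir221 moved by -0.31 from replicate 1 to replicate 2. In the smooth muscle pair the ratio of Mir145a to Mir143 moved by 1.40. The Mir181 family has 3 such pairs, and the ratio moved by 1.83 for Mir181b-1 to Mir181a-1 (28 and 35 counts of Mir181b-1), by -1.51 for Mir181b-2 to Mir181a-2 (33 and 67 counts of Mir181a-2) and by -0.51 for Mir181d to Mir181c. The shifts of Mir27 against Mir23 thus lie within the range of these 5 pairs. The ratios of Mir27 to Mir23 moved in the same direction on both chromosomes. In the Mir181 family, the 2 pairs of Mir181a and Mir181b moved in opposite directions, but each holds a gene of low count. Whether reads of these Mir181 genes match several loci was not tested, so the families may not be alike in this respect.

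Between the libraries themselves, none of the 6 members was past 2-fold, against 17.9% of the 358 detected genes (33 higher and 31 lower in replicate 2). These ratios are replicate 2 over replicate 1 after TMM scaling, which sets the bulk of genes level, and the median over all detected genes was -0.06. Mir23a stood at 0.68 (exact 95% counting interval 0.67 to 0.70) and Mir23b at 0.93 (0.92 to 0.95). Mir27a stood at -0.70 (-0.78 to -0.62) and Mir27b at -0.26 (-0.29 to -0.23). Mir24-2 stood at 0.40 (0.23 to 0.56) and Mir24-1 at 0.57 (0.26 to 0.89). Both members of each family lay on the same side of 0, with the Mir27 pair below it and the Mir23 and Mir24 pairs above. With library totals in place of TMM the median of all genes moved by -0.43, to -0.48, and the calls over all genes became 19 higher and 78 lower. Mir24-2 then stood at -0.033, on the other side of 0, and Mir27a at -1.13, past 2-fold, while the other 4 members kept their direction and stayed within 2-fold. The median of the 6 members was 0.48 with TMM.

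**Figure D4:**
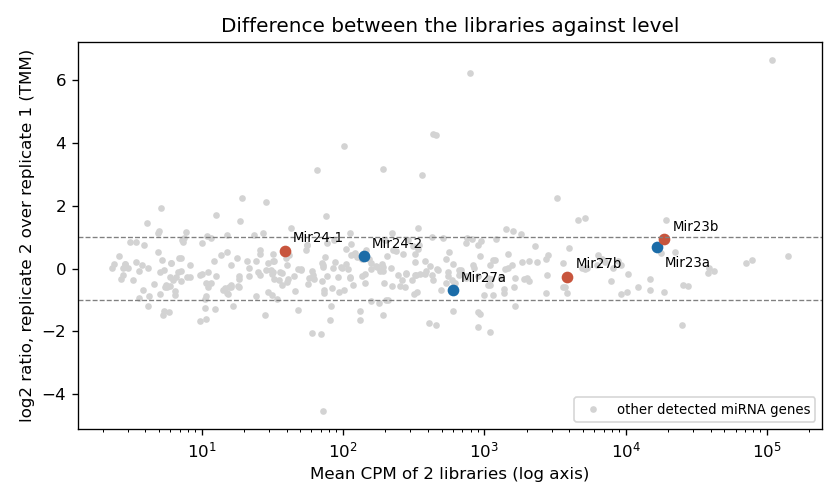
The log2 ratio of replicate 2 over replicate 1 after TMM scaling (vertical) against mean CPM of the 2 libraries (log axis), for the detected miRNA genes in gray and the members in blue (chromosome 8) and red (chromosome 13). Dashed lines mark 2-fold, and the 6 members lie between them, from -0.70 for Mir27a to 0.93 for Mir23b.

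Genes listed for their link to endothelium were spread over both sides of 0. Of the 12 listed, Mir424 matched no symbol and the other 11 were detected. An entry for Mir424 under another symbol was not looked for, so the values below may leave that gene out. Of the 11 detected, 1 was past 2-fold higher in replicate 2, Mir296, and 3 were past 2-fold lower, Mir218-2, Mir221 and Mir222. Over all 358 detected genes, 64 (17.9%) were past 2-fold, 33 higher and 31 lower. The median log2 ratio of the 11 listed genes was -0.35, against -0.06 over all detected genes. The most abundant, Mir126a, the main endothelial miRNA, stood at 0.41, and Mir10a at -0.54. Mir126a had 540202 and 707963 counts, and Mir130a, with 22839 and 22137 counts, stood at -0.02.

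The genes with levels most like those of the members were found by the distance between log2 CPM values over the 2 libraries, among 352 other detected genes. Mir139 was nearest to both Mir23a and Mir23b, at distances of 0.20 and 0.32, with 66115 and 91687 counts. Mir132 was nearest to Mir27a, at 0.21, with 2997 and 2165 counts, and Mir17 to Mir27b, at 0.28, with 18896 and 12316 counts. Mir669c was nearest to Mir24-2, at 0.06, and Mir326 to Mir24-1, at 0.14. With 2 libraries this measures a like level and not a shared pattern.

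The minus-strand partners of the Mir24 genes were counted on their own strand. Mir3074-1, opposite Mir24-1, had 75 counts in replicate 1 and 48 in replicate 2. Mir24-1 had 1.87 times that count in replicate 1 (1.40 to 2.51) and 4.27 times in replicate 2 (3.11 to 5.98). Mir3074-2, opposite Mir24-2, had 1 and 0 counts. In the column counted without regard to strand, Mir24-1, Mir24-2 and both Mir3074 genes stood at 0 in both libraries, while Mir23a, Mir23b and Mir27b kept the same counts and Mir27a gained 1 count in replicate 1.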

How the data were processed

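Small RNA was sequenced from 2 libraries of 1 group. Text files deposited with the tables name the build mm10 and the annotation GENCODE M21. No source used here gives the aligner or counter. Raw, unnormalized counts for each miRNA gene were deposited by the authors in 3 columns, read from their values as without regard to strand, own strand (used) and opposite strand, with 4 summary lines that were kept out of totals. Of all reads, 26.9% in replicate 1 and 23.9% in replicate 2 were unmapped, 28.0% and 25.0% had several places, and 9.65% and 6.12% fell outside miRNA genes.

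CPM, shares (Wilson intervals), ratios within a library (exact intervals by the Clopper-Pearson method; for their shift between libraries, intervals from the normal approximation to log counts) and ratios between libraries (TMM factors 1.16 and 0.862, prior count 0.5) were computed, the last for all genes with 10 counts in each library. No test between conditions applied with 1 group. The distances used log2 of CPM plus 1. The members, the lists and the rule for named genes (the 6 members, their minus-strand partners, seed sharers, nearest genes and list members) were chosen with earlier results of these data known. The ratio script was tested on simulated data. Alternatives were the strand column, Mir122 or Mir126a left out, all reads as denominator, library totals, DESeq2 size factors, a prior count of 5, count minimums of 1 and 100, and each replicate left out. Scaling used edgeR 4.0.16 and DESeq2 1.42.0 under R 4.3.3, and all else scipy 1.17.1, pandas 2.3.3 and numpy 2.4.6 under Python 3.11.15, with plots from matplotlib 3.10.9.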

Additional observations from a re-analysis of the deposited data

Results flagged for a closer look

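Counts on the strand opposite Mir24-1, in a column outside the main measurement, were above the 3 counts that a count of 0 allows, with 75 in replicate 1 and 48 in replicate 2. They are the same counts as those of Mir3074-1 on its own strand. Opposite Mir24-2 there were 1 and 0.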

How the results depend on the processing

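Apart from leaving out a replicate, which with 2 libraries always moves a mean by less than their SD, 44 alternative values were computed for 13 results. Of these 26 stayed within a limit and 18 moved further. The limit was the spread between libraries or the counting interval, and for the number of genes past 2-fold a fixed factor. The share of the 6 genes, 4.01%, was 5.25% in the column without regard to strand, 4.61% with Mir122 and 4.67% with Mir126a left out of the totals, and 1.63% of all reads. Leaving out each replicate gave 3.65 to 4.37% for it, 0.34 to 0.43 for the log2 ratio of the clusters, 0.04 to 0.29 for Mir23b to Mir23a, 2.54 to 2.98 for Mir27b to Mir27a and -1.94 to -1.77 for Mir24-1 to Mir24-2. With library totals the log2 ratios of replicate 2 to replicate 1 were 0.25 for Mir23a, -1.13 for Mir27a, -0.033 for Mir24-2, 0.50 for Mir23b, -0.69 for Mir27b and 0.14 for Mir24-1. With DESeq2 size factors Mir23a stood at 0.74, Mir23b at 0.99 and Mir27b at -0.20, and in the column without regard to strand Mir23a stood at 0.71 and Mir23b at 0.96. The number of detected genes past 2-fold, 64, was 97 with library totals, 155 of 588 at a minimum of 1 count and 37 of 246 at 100, where other numbers of genes were tested. The cause of the other shifts was not tested. Without regard to strand both Mir24 genes were at 0, so that setting gave no value for them. The ratios of Mir27 to Mir23 within a library were added after seeing the data, and ranged from -5.59 to -4.21 on chromosome 8 and from -2.90 to -1.71 on chromosome 13. The counting interval of Mir24-1 was the widest of the 6, and its counts leave out full-length reads of miR-24-3p, which match both Mir24 hairpins.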
